A study of Mus musculus with 2 samples.

Results

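Neutrophils were examined among the sorted GFP+ cells of denervated hind limb muscle, 7 days after crush of the sciatic nerve. A barcode was counted as a neutrophil when it held at least 10 UMIs (unique molecular identifiers, each standing for 1 captured RNA molecule) of the alarmins S100a8 and S100a9 together, at least 2 UMIs of Retnlg, Csf3r, Cxcr2 and G0s2 together, and at most 5 UMIs of the macrophage genes C1qa and C1qb. This gate took 75 of the 34441 barcodes that had more than 200 genes and under 10% mitochondrial counts, a share of 0.218% (0.171% to 0.273%, exact Clopper-Pearson 95% interval). The 8 genes of the gate, and all genes that follow them in the same cells, are therefore given as descriptions and not as findings of a test.

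The library came from tibialis anterior and gastrocnemius muscle of male S100GFPtg mice aged 2 months, labelled WT, whose green fluorescent protein is driven by the S100B promoter. Viable GFP+ cells were sorted and their RNA was read from the 3' end in 1 droplet library. Its number of animals is not certain, since the methods mention pooling and the series text 1 mouse. The GFP- fraction was not analysed here. With 1 library there is no replicate, no test and no p-value, and every interval below is a 95% interval that covers counting error only.

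Neutrophils are short-lived granulocytes that leave the bone marrow under the control of CXCR2 and CXCR4, adhere to vessel walls through the beta 2 integrins, and enter injured tissue along gradients of CXC chemokines, complement fragments and lipid mediators. Their granules are filled in sequence during maturation, azurophil granules first, specific granules next and gelatinase granules last, so transcripts of the early granule proteins mark immature cells and have mostly disappeared from cells that circulate. In injured nerve and muscle they arrive early, release proteases and oxidants, and are cleared by macrophages.

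The label was checked against markers of other cell types. Markers of 6 other classes (57 genes) were summed in each barcode, those of monocytes and macrophages, dendritic cells, fibroblasts, endothelial and mural cells, muscle and red cells, among them Cd68, Dcn, Pecam1, Acta1 and Hba-a1. They made up 0.0899% to 32.8% of the UMIs of the 75 barcodes (median 1.84%), beside a median of 4.57% in the rest of the library, where a cell's own markers count too. The values left a gap between 0.822% and 1.34%, and 34 barcodes lay below it. These 34 are called the low-marker barcodes from here on, and the other 41 the high-marker barcodes, with a limit of 1% that was set after the data were seen. The low-marker barcodes held a median of 2999 UMIs (1582 to 9916), a median of 0.913% mitochondrial counts and 18 to 2101 alarmin UMIs (median 127.5). The high-marker barcodes were shallower, with a median of 1563 UMIs (1061 to 14229), 3.24% mitochondrial counts and 10 to 363 alarmin UMIs (median 25). Their leading foreign class was fibroblast in 23, monocyte or macrophage in 12, erythroid in 3, endothelial or mural in 2 and muscle in 1. The alarmin share of UMIs ran from 0.173% to 20.3% (median 1.65%) in these 41, so they were not uniform, and from 0.427% to 31.4% (median 4.92%) in the 34. Whether these 41 are neutrophils was not tested, nor was the part of this foreign RNA in the levels of the whole gate. Counts of genes are therefore given for the 75 barcodes and the 34, and levels for the 34 or for both.

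**Figure D1:**
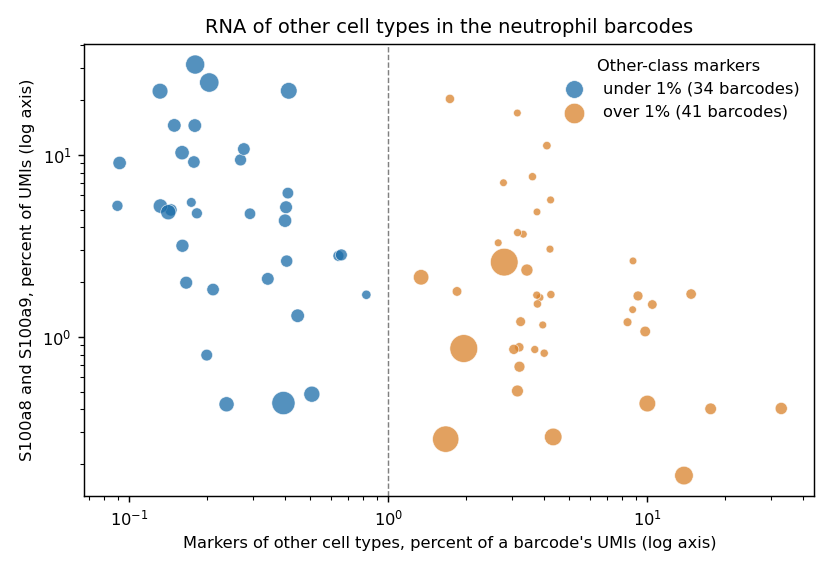
Each point is 1 of the 75 neutrophil barcodes, with the percent of its UMIs from markers of other cell types (x, log axis) against the percent from S100a8 and S100a9 (y, log axis), and an area proportional to its UMIs. The 34 barcodes left of the dashed line at 1% lie at 0.822% or below, and the 41 to the right start at 1.34%.

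Barcodes near the alarmin limit that met the other conditions of the gate all carried more than 1% of other markers. The 8 members with the fewest alarmin UMIs (10 to 14) had 3.15% to 32.8% of other markers, so none was a low-marker barcode. Just outside, 8 barcodes met the other conditions with 5 to 8 alarmin UMIs, and other markers made up 2.90% to 20.3% of their counts. A further 42 barcodes met the alarmin condition but held 6 to 126 C1q UMIs, with 10 to 814 alarmin UMIs and 3.07% to 21.6% of other markers, and 36 met it with under 2 UMIs of the 4 neutrophil genes and 0.208% to 26.2% of other markers. Outside the gate 846 of 34366 barcodes (2.46%, 2.30% to 2.63%) held an alarmin UMI, among them 1.32% of 2964 fibroblast barcodes, which should lack these genes and had a median of 3158 UMIs. No member was among the 372 barcodes that the GFP- library also held. Scrublet marked 4745 of the 34441 barcodes (13.8%) as doublets, of which 132 had 5000 UMIs or more, and none of the 75. Neither count bears on the label.

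Levels are CPM, the UMIs of a gene per 1000000 UMIs of all barcodes in a gate. The closest other cells were 268 monocyte barcodes, taken by Ly6c2, Ccr2 and Ms4a4c with few C1q, alarmin and collagen UMIs. They were much deeper (median 10887.5 UMIs) and the same markers, which include their own, made up 1.35% of their counts at the median. Macrophages (5322 barcodes, high C1q), fibroblasts and all 34366 remaining barcodes served for levels, and the last also for counts. Of 3887 features at 50 CPM or more in either gate, 511 (13.1%) were at least 4-fold higher in the 75 barcodes of the gate, the 41 included, than in monocytes and 234 (6.02%) at least 4-fold lower, with a median log2 ratio of -0.06 over all of them. For the 34 low-marker barcodes 461 of 3811 features (12.1%) were higher and 597 (15.7%) lower, with a median of -0.08. Against the rest of the library, 294 of 3994 features (7.36%) were higher and 234 (5.86%) lower in the 75, and 491 of 4186 (11.7%) higher and 795 (19%) lower in the 34. Only 12 monocyte barcodes lay in the range from the 10th to the 90th percentile of neutrophil depth, and with those alone 195 features were higher and 628 lower. The shares of the gene lists below are to be read against these percentages. Many lists hold few tested genes, and whether the share of any list departs from these percentages was not tested. The count of each list is therefore a description, and its genes are given for their values alone.

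Genes of neutrophil identity that the gate did not use were nearly all far above the monocyte level. Of 14 such genes 13 were at least 4-fold higher in the 75 barcodes, with a median log2 ratio of 6.23, and 13 in the 34, with a median of 7.00. These genes accompany the gate's own genes in neutrophils, so the count describes the cells and is no independent check of them. Mmp9, the gelatinase that cuts basement membrane, held 0 to 14 UMIs (median 2.5) per low-marker barcode and was present in 27 of 34. Its level was 587 CPM (493 to 694) in the 75 and 1042 CPM (866 to 1242) in the 34, beside 4.85 CPM in monocytes, a log2 ratio of 7.75 (6.97 to 8.63) for the 34. Il1r2, the decoy receptor that binds interleukin 1 without signalling, was found in 32 of the 34 at 1999 CPM (1753 to 2270.1), against 46.9 CPM in monocytes. Hdc, the enzyme that makes histamine, stood at 983 CPM against 7.44, and Lrg1, a secreted glycoprotein, at 521 CPM against 4.20. The retroviral-like protease gene Asprv1 and the stefin gene Stfa2l1, an inhibitor of cysteine proteases, held 140 and 103 UMIs in the 75 and 0 in the 268 monocytes. Set at the floor of 3 UMIs for the monocyte gate, these are log2 ratios of at least 9.27 and 8.83. Cd177, a surface partner of proteinase 3, was the member of the list under 4-fold, at 134 CPM (76.8 to 218) in the 34 and 44.0 CPM in monocytes, and it lay in 3 of the 34 barcodes.

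The gate's own genes gave the following levels. S100a8 and S100a9, which pair as calprotectin, stood at 21244 and 33486 CPM in the 75 and at 33888 and 54679 CPM in the 34. Retnlg, a resistin-like secreted protein, ran from 0 to 358 UMIs (median 4) in the 34 and was found in 23 of them. The receptor for granulocyte colony-stimulating factor, Csf3r, was found in 30 of 34 with 0 to 12 UMIs (median 4.5), and Cxcr2, the receptor for CXCL1, CXCL2 and CXCL5, in 26 with 0 to 9 UMIs (median 2). Every low-marker barcode thus had alarmins, but 11 lacked Retnlg and 4 lacked Csf3r. After each barcode was thinned at random to 500 UMIs, Csf3r was seen in 41.2% of the 34, 2.24% of monocytes and 0.439% of fibroblasts (unthinned 88.2%, 31.3% and 1.28%), and Mmp9 in 50%, 0.373% and 0.101% (unthinned 79.4%, 0.746% and 0.810%).

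Granule transcripts split by granule class. All 7 azurophil genes, which include myeloperoxidase (Mpo), neutrophil elastase (Elane) and proteinase 3 (Prtn3), were at 0 of 119040 UMIs in the low-marker barcodes, where 3 UMIs would be 25.2 CPM. In the 75 only Prtn3 and Prss57 had a UMI, 1 each, both in high-marker barcodes. Of the specific granule genes 6 of 11 tested were at least 4-fold above monocytes in the 75 and 2 below (median log2 4.25), and 7 of 11 above and 2 below in the 34 (median 5.00). Members of this list differed in how many barcodes held them. Ngp (neutrophilic granule protein) held 262 UMIs in 18 of the 75 and 151 UMIs in 4 of the 34, Camp (cathelicidin, an antimicrobial peptide) 181 in 17 and 98 in 3, and Ltf (lactoferrin, which binds iron) 52 in 8 and 25 in 2. Pglyrp1, a peptidoglycan recognition protein, was found in 28 of 34 at 848 CPM (691 to 1031), a log2 ratio over monocytes of 5.52 (5.04 to 6.02), and haptoglobin (Hp) in 28 of 34 at 1243 CPM (1051 to 1460.5), a ratio of 2.09 (1.83 to 2.35). Lcn2, which starves bacteria of iron, lay in 13 and the collagenase Mmp8 in 11 of the 34. Below monocytes were the chitinase-like Chil3 (50.4 against 1261 CPM) and Cybb, the oxidase subunit of the granule membrane (185 against 875 CPM).

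The promoters of 4 specific granule genes are printed because Ngp, Camp and Ltf transcripts lay in few of the low-marker barcodes and Lcn2 in 13. They are the 250 bases before the annotated start in RefSeq (GRCm38.p6), 5' to 3' on the gene's strand, for Ngp (chr9:110419558-110419807, + strand), Ltf (chr9:111019042-111019291, + strand), Lcn2 (chr2:32387740-32387989, - strand) and Camp (chr9:109849457-109849706, - strand). Capitals mark TTGCNNAA or its reverse complement TTNNGCAA, searched on both strands, letters typical of sites of C/EBP factors, which direct granulocyte maturation.
Ngp: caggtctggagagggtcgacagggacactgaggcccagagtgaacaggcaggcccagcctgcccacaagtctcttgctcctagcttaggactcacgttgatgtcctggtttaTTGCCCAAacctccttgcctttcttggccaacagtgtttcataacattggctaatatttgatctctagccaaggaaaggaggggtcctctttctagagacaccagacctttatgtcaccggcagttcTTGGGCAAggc
Ltf: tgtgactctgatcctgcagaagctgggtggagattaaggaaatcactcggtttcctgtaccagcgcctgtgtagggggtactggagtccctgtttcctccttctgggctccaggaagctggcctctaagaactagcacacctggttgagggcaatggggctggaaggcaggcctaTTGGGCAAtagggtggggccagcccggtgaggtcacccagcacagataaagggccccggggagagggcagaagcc
Lcn2: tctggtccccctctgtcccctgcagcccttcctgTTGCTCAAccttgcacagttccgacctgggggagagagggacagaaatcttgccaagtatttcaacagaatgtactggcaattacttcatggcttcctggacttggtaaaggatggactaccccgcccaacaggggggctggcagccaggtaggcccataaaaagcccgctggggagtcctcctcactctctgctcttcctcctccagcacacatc
Camp: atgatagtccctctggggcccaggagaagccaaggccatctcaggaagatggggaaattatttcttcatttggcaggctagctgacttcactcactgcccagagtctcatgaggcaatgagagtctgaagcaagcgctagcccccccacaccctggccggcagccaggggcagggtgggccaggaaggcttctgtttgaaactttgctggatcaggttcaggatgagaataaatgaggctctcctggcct
The Ngp window holds 2 matches, whose first bases lie at -138 and -11 from the start, the Ltf window 1 at -75 and the Lcn2 window 1 at -216. The Camp window holds none. Of 10 specific granule genes with a promoter in the table, 5 hold the letters in at least 1 promoter (Ngp, Ltf, Lcn2, Mmp8 and Fcnb), as do 2930 of all 27025 genes (10.8%). Counted by promoter, 3142 of all 32851 of that length hold them (9.56%). These are matches of letters and not observed binding, and Fcnb was at 0 UMIs in the 75.

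Of the genes of gelatinase granules and secretory vesicles, 3 of 9 tested were at least 4-fold above monocytes in the 75 and 5 of 10 in the 34, with medians of 0.55 and 1.43 and none below. Beside Mmp9 these included, in both sets, the formyl peptide receptors Fpr1 and Fpr2, which sense bacterial and mitochondrial peptides, at 185 and 227 CPM in the 34 against 10.7 and 30.4 CPM in monocytes. Tyrobp, a signalling adaptor of many myeloid receptors, was found in all 34 and Itgam, the integrin chain CD11b, in 24, with log2 ratios of 0.72 (0.59 to 0.85) and 0.69 (0.28 to 1.07). Of the 6 NADPH oxidase subunits, 0 passed 4-fold above monocytes in the 75 and 1 in the 34, and Cybb passed it below in both. The cytosolic subunit Ncf1 and the GTPase Rac2 stood at 252 and 689 CPM in the 34 against 62.7 and 175 CPM in monocytes. Cyba, the membrane partner of Cybb, was at 1310.5 against 1700.0 CPM, and Ncf4 at 202 against 151 CPM. Their log2 ratios in the 34 were -0.38 (-0.61 to -0.15) and 0.42 (-0.24 to 1.01).

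Receptors for chemoattractants reached 4-fold above monocytes in 2 of 9 tested genes in both the 75 (median 0.67) and the 34 (median 1.41), and these were Fpr1 and Fpr2. C5ar1, the receptor for complement C5a, stood at 706 CPM (563 to 874) in the 34 and 245 CPM in monocytes, and Ccr1 at 689 against 216 CPM. Cxcr4, which holds neutrophils in marrow and marks aged ones, was found in 21 of the 34 at 454 CPM (341 to 592), and over monocytes its log2 ratio was 0.84 (0.41 to 1.24). The 10 tested adhesion genes had a median log2 ratio over monocytes of 0.03 in the 75 and 0.74 in the 34. Itgal, the alpha chain of LFA-1, was at 206 CPM in the 75 and 344 in the 34, against 70.5 in monocytes. Cd44, a hyaluronan receptor, was found in all 34 at 2974 CPM (2672 to 3300.3), against 1054 in monocytes.

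Several innate sensing genes were higher than in monocytes. Of the list, 4 of 12 tested passed 4-fold in the 75 (median 1.19) and 6 of 13 in the 34 (median 1.98), with none below. Clec4d, a C-type lectin that binds fungal and mycobacterial glycolipids, held 2 to 28 UMIs (median 11) and was found in every low-marker barcode, although the gate did not use it. Its level was 2036 CPM (1857 to 2228) in the 75 and 3486 CPM (3159 to 3838) in the 34, against 482 CPM in monocytes, 146 CPM in macrophages and 7.04 CPM in fibroblasts. At 500 UMIs it was seen in 76.5% of the 34, 19.0% of monocytes and 1.15% of fibroblasts (unthinned 100%, 80.2% and 4.59%). The amplifying receptors Trem1 and Trem3 were at 722 and 512 CPM in the 34 against 61.4 and 35.2 CPM, and the inflammasome sensor Nlrp3 at 1403 against 356 CPM. The lipopolysaccharide co-receptor Cd14 had a log2 ratio over monocytes of 0.04 (-0.14 to 0.22) in the 34 and -0.54 (-0.70 to -0.38) in the 75.

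Il1b, the main interleukin 1 of myeloid cells, stood near the monocyte level. It was found in 33 of the 34 with 0 to 39 UMIs (median 15.5), at 4763 CPM (4379 to 5172), and in the 75 at 2902 CPM (2687 to 3129), beside 3567 CPM in monocytes, 495 in macrophages and 43.8 in fibroblasts. Its log2 ratio over monocytes was -0.30 (-0.41 to -0.19) for the 75 and 0.42 (0.29 to 0.54) for the 34, so the direction turned with the barcodes used, and it was 0.92 for the 75 against monocytes of like depth. Of 12 tested cytokines and antagonists 3 were at least 4-fold higher in the 75 (median 0.31) and 4 in the 34 (median 0.63), and none was lower. Besides Il1r2 these were the receptor accessory protein Il1rap (596 CPM in the 34 against 39.5) and Il15, which sustains lymphocytes (437 against 20.0 CPM). The antagonist Il1rn had a log2 ratio of 1.17 (0.78 to 1.53) in the 75 and passed 4-fold in the 34, at 554 CPM (429 to 705) against 135 CPM. Il1f9 (interleukin 36 gamma) held 56 UMIs in 17 of the 75 and none in monocytes, a log2 ratio of at least 7.95. Il1a and Il6 were at 0 UMIs in the 34.

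Chemokines differed from gene to gene in their relation to monocytes. Cxcl2, a ligand of CXCR2, was found in 32 of the 34 with 0 to 320 UMIs (median 16.5), at 10677 CPM (10098 to 11281) in the 34 and 6494 CPM (6171 to 6829) in the 75, beside 7333 CPM in monocytes and 8075 in macrophages. The log2 ratio over monocytes was -0.18 (-0.25 to -0.10) for the 75 and 0.54 (0.46 to 0.62) for the 34, again of opposite sign, and 0.66 for the 75 against monocytes of like depth. Ccl3, a ligand of CCR1, stood at 2495 CPM (2219 to 2795) in the 34 against 492 CPM in monocytes, and its UMIs lay in 17 barcodes. Over 11 tested chemokines 0 were 4-fold higher and 3 lower in the 75 (median -0.84), and 1 higher and 3 lower in the 34 (median -0.20). The lower ones were Ccl2 and Ccl7, which attract monocytes, and Ccl9. Ccl2 was at 67.2 CPM (29.0 to 132) in the 34, 1344 CPM in monocytes and 3026 CPM in macrophages. Of the ligands and growth factors for neutrophils 3 of 7 tested were 4-fold higher than in monocytes in the 75 (Lcn2, Csf1 and Cxcl12) and the same 3 in the 34, where Cxcl1 was lower. In the 34 all 15 Cxcl12 UMIs lay in 1 barcode with endothelial RNA, and in the other 33 it was at 0. Cxcl1 was highest in fibroblasts of the gates compared, at 911 CPM, and 58.8 CPM in the 34. Complement C3 was at 1962 CPM in fibroblasts and 185 in the 34. Csf3, the ligand of CSF3R, was at 0 UMIs in the 75 and at 24.6 CPM in monocytes, and Il17a was at 0 in every gate.

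Of the genes of the type I interferon response 2 of 10 tested were at least 4-fold higher than in monocytes in the 75 and 3 of 10 in the 34, where 1 was lower, with medians of 0.29 and 0.78. Ifitm1, a membrane protein that restricts virus entry, was found in 24 of the 34 at 2226 CPM (1966 to 2511), against 35.6 CPM in monocytes and 5.53 in macrophages. Slfn4 and Slfn1, of the schlafen family, were the others, at 159.6 and 151 CPM against 9.38 and 27.5. Ifitm3, of the same family as Ifitm1, was the lower one at 538 against 2318 CPM. The classical induced genes were sparse, with Ifit1 at 1 UMI, Rsad2 at 4 and Isg15 at 33 in the 75. No tested survival gene reached 4-fold in either set (medians -0.31 and 0.25). Mcl1, on which neutrophil survival depends, was found in 33 of the 34 at 2134 CPM against 1139 in monocytes, and Bcl2 was at 0 in the 34.

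Of 19 tested transcription factors 1 was at least 4-fold higher than in monocytes and 2 lower in the 75, and 1 higher and 3 lower in the 34. The higher one was Klf2, a factor of quiescence, at 664 against 103 CPM. Cebpb, a C/EBP factor of emergency granulopoiesis, was found in all 34 at 4141 CPM (3784 to 4524) against 2367 CPM, whereas Cebpe, which drives the specific granule stage, had 2 UMIs in the 75 and Gfi1 none. Irf8 of the monocyte lineage held 1 UMI in the 34, against 96.0 CPM in monocytes. Klf4 was at 25.2 CPM in the 34 against 294 CPM in monocytes. In the 75 its level lay above monocytes, so the direction turned with the barcodes used. It was found in 22 of the 41 high-marker barcodes, and 61 of its UMIs in the 75 (59.2%) lay in 3 barcodes. Of the glycolysis and hypoxia genes 1 of 16 passed 4-fold in the 75 and 2 in the 34 (medians 0.34 and 0.38). In both it included Slc2a3, the glucose transporter GLUT3, at 479 CPM (363 to 620.4) in the 34 and 6.47 CPM in monocytes, although 13 of its 57 UMIs lay in 1 barcode that carried endothelial RNA. In the 34 they also included hexokinase 3 (Hk3) at 143 against 24.3 CPM. Alox5, which starts leukotriene synthesis, was the eicosanoid gene above 4-fold of 5 tested, at 134 against 9.05 CPM, and 1 gene was lower in the 75 and 0 in the 34.

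None of 13 cytoskeletal genes reached 4-fold in either set (medians -0.56 and -0.13), and the actin bundler Lcp1 was found in all 34. Of the genes tied to extracellular traps 1 of 4 tested was higher in the 75 and 2 in the 34, the latter being Ncf1 and Lmnb1. Lamin B1 (Lmnb1), a protein of the nuclear envelope, was at 1184 CPM (997 to 1397) against 101 CPM, while Padi4, the enzyme that citrullinates histones, had 4 UMIs in the 75. Of the Fc receptor and clearance genes 2 of 13 tested were higher and 1 lower in the 75, and 2 of 12 higher and 2 lower in the 34. The inhibitory receptor Cd300lf was higher at 302 against 34.9 CPM. Annexin V (Anxa5), which binds phosphatidylserine, was lower at 42.0 against 491 CPM.

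Beyond the alarmins, 0 of 6 tested S100 genes were at least 4-fold higher and 2 lower than in monocytes in the 75, and 1 of 5 higher and 2 lower in the 34. S100a11, a calcium-binding partner of annexins, was found in all 34 with 4 to 64 UMIs (median 17), at 5670.4 CPM (5251 to 6115) against 1175 CPM in monocytes. S100a4 and S100a10 were the lower ones. S100a4 held 2 UMIs in the 34 and stood at 3461 CPM in monocytes, a log2 ratio of -7.69 (-10.73 to -5.83), and at 1085 CPM in the high-marker barcodes. S100b itself had 1 UMI in the 75, in a high-marker barcode. In the stefin list 1 of 2 tested genes was higher in the 75 and 2 of 3 in the 34, Stfa2l1 and, in the 34, Stfa1, which had 7 UMIs. Cstdc4, another gene of the cystatin superfamily that was not on the list, held 212 UMIs in 17 of the 75 and none in monocytes, a log2 ratio of at least 9.87, the highest of all features by the rule for named genes.

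The 15 features furthest above monocytes in the 75 mixed both kinds of RNA. Cstdc4, Camp, Ngp, Asprv1, Stfa2l1, Il1f9 and Wfdc21, a small secreted protein of the whey acidic protein family, held 50 to 186 of their UMIs in the 34. The other 8 were genes of tendon, smooth muscle or connective tissue, such as Prg4 (lubricin), Fmod (fibromodulin), Comp, Thbs4 and Myh11, and had 0 to 3 UMIs in the 34. Prg4 gives the plainest case, with 296 UMIs in 18 of the 75 barcodes and 0 in the 34. In the 34 the same rule named, beside genes already described, Dach1, a repressor of transcription, with 18 UMIs in 8 barcodes and the class I histocompatibility gene H2-Q10 with 26 in 15. It also named the chitinase-like Chil1 with 17 UMIs in 11, Mrgpra2b, a receptor known from neutrophils, with 17 in 6, and Tm4sf1, whose 26 UMIs all lay in 1 barcode.

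Features furthest below monocytes included those of antigen presentation and of the monocyte lineage. Tnip3 and Adora2b had 0 UMIs in the 75, and set at 3 UMIs their log2 ratios were at most -4.06 and -3.11. H2-DMb1 and H2-DMa, which load peptides on class II molecules, held 3 and 8 UMIs, with log2 ratios of -4.88 (-7.16 to -3.33) and -3.73 (-4.94 to -2.74). The scavenger receptor Msr1 held 3 UMIs, and the tetraspan genes Ms4a6c and Ms4a6d 10 and 2. The others were Nrg1, Chil3, Plac8, Ifi30, Tnfsf9, Arl4c, Gm6377 and the reporter Gfp. In the 34 the invariant chain Cd74 was at 126 CPM against 4929 in monocytes, but Cd74, H2-Aa, H2-Ab1 and Fn1 belong to the markers that chose the 34. Not among those markers were Lgals1 (galectin 1), Crip1 and Tmsb10 (thymosin beta 10), with 3, 10 and 9 UMIs in the 34 and log2 ratios of -5.73, -5.00 and -5.16. The T cell gene Cd3d was found in 10 of the 34 with 15 UMIs, while Cd3e and Trac, which T cells also need, were at 0 in the 75. The other lymphocyte genes were at 0 in the 34 except Cd3g with 1 UMI.

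**Figure D2:**
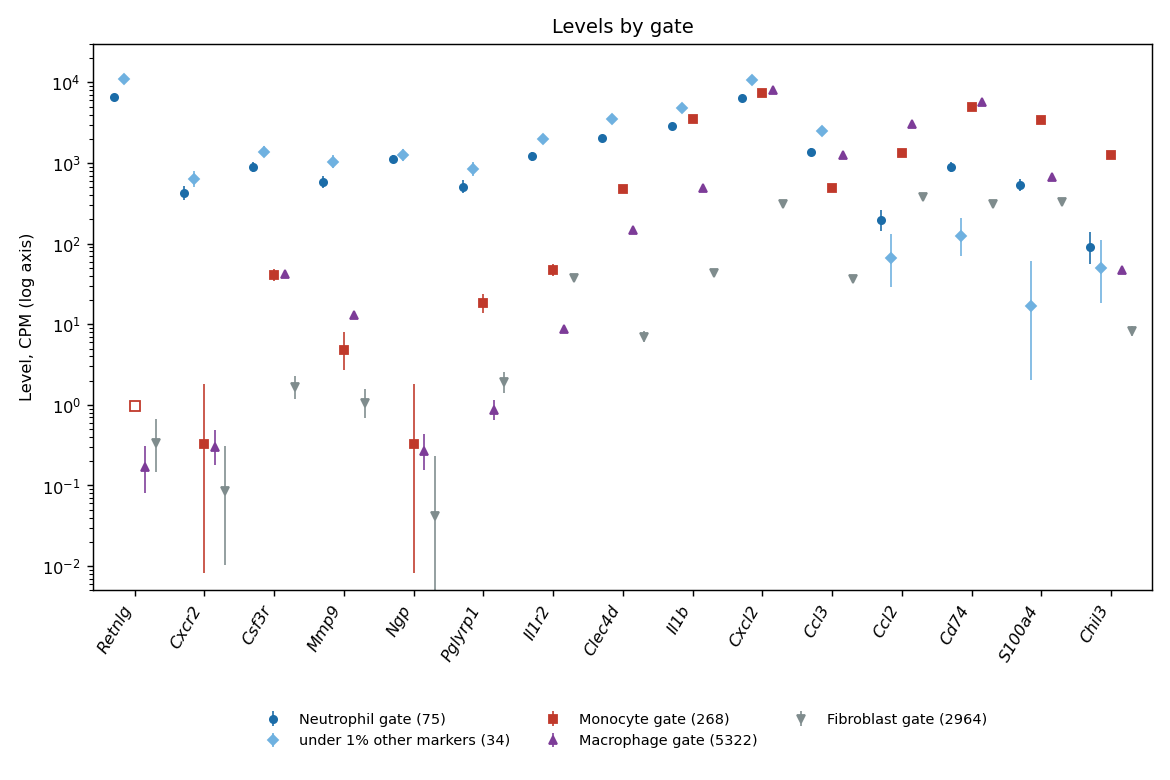
Levels in CPM (y, log axis) of 15 genes in 5 sets of barcodes, whose numbers stand in the legend. Filled points carry exact Poisson 95% intervals, and open points are genes at 0, drawn at the level of 3 UMIs. Mmp9, no gene of the gate, lies at 1042 CPM in the 34 and 4.85 in monocytes, Il1b and Cxcl2 lie near monocytes, and Ccl2, Cd74, S100a4 and Chil3 lie below them.

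The 34 low-marker barcodes were not uniform. Leiden clustering of the 75, a description with no test, put 18 of them in a cluster of 24, whose leading genes, taken over the 6 high-marker barcodes too, were Tpm1, Dennd3, Tmem156, Ly6g and Rasgrp2, and the other 16 in a cluster of their own led by Rffl, Olr1, Tnf, Ccl3 and Bcl2a1a. The 3 remaining clusters held high-marker barcodes alone and were led by fibroblast-type genes (Slc4a4, Il6, Sdk1), by red cell and macrophage genes (Hba-a1, Cxcl16, Fcrls) and by tendon genes (Chad, Kera, Mkx). Among the low-marker barcodes of the first 2 the median depth was 2918 and 3050.5 UMIs, but the 18 reached 9916 UMIs and the 16 only 4741. Ccl3 stood at 103 CPM in the 18 and 5680.0 in the 16, Ccl4 at 529.5 and 5465, and Tnf at 44.1 and 1586. The inhibitor Il1rn was at 44.1 and 1234 CPM, the adhesion molecule Icam1 at 14.7 and 725, PD-L1 (Cd274) at 58.8 and 725, and ferritin heavy chain (Fth1) at 14606 and 48888. Of the UMIs in the 16, 3 barcodes held 236 of the 279 Ccl4 UMIs, 39 of 63 for Il1rn, 28 of 37 for Icam1 and 25 of 37 for Cd274, and 1113 of 2496 for Fth1. All of these genes had the higher level in the 16. All but Il1rn belong to a list of 18 genes of a state known from neutrophils that have entered tissue. On the same list, Gpnmb, Dcstamp and Jag2 were at 0 in the 75, and Hilpda held 1 UMI in the 34. The clusters were built on such genes, so these values describe the split. Over the 34 as a whole, 3 of 15 tested genes of that state were at least 4-fold above monocytes and 2 below, and over the 75 0 of 13 above and 1 below. The converse held for Retnlg, at 17622 and 2311 CPM, and S100a8, at 47055 and 16355 CPM, but the 4 barcodes with granule RNA described next carried this contrast. Without them the other 14 were at 2458 CPM for Retnlg and 20333 for S100a8. Il1b (4810.0 and 4701 CPM), Csf3r (1427 and 1332 CPM) and Mmp9 (1000.2 and 1097 CPM) were closer between them, and without the same 4 they were at 5742.5, 1899 and 693 CPM in the 14. Siglecf, which marks a neutrophil state of tumours and injured tissue, had 6 UMIs in 4 barcodes, all among the 16.

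At one end stood 4 barcodes that held all 274 UMIs of Ngp, Camp and Ltf in the 34. Of these, 272 lay in 3 barcodes and 2 in the other. They were chosen by those 3 genes, and their other values follow. Their alarmin UMIs ran from 1025 to 2101, against 18 to 488 in the other 30 barcodes, and Retnlg from 148 to 358 UMIs against 0 to 61. The collagenase Mmp8 had 10 to 42 UMIs against 0 to 4, Lcn2 9 to 76 UMIs against 0 to 4, Ly6g, the surface protein used to sort mouse neutrophils, 3 to 6 UMIs against 0 to 1, and Ifitm6 2 to 34 UMIs against 0 to 1. The alarmins and Retnlg are genes of the gate, and the other 4 genes were chosen after their values were seen. How many of all features separate these 4 barcodes from the other 30 in the same way was not counted, so the ranges are descriptions alone. Il1b (0 to 32 against 1 to 39 UMIs), Fth1 (31 to 64 against 3 to 464) and Cstdc4 (0 to 50 against 0 to 52) overlapped. Ccl3, Tnf and Ifitm1, also chosen after their values were seen, were at 0 in all 4, while they were found in 17, 11 and 24 of the other 30. Other chemokines were present, since Cxcl2 was found in 3 of the 4 (0 to 10 UMIs) and in 29 of the 30 (0 to 320). Ccl4 was found in 1 of the 4 (0 to 4 UMIs) and in 16 of the 30 (0 to 117). The 4 were deeper, at 4569 to 6883 UMIs (median 5889) against 1582 to 9916 (median 2907), and 3 of them lay above the 4741 UMIs that the others reached without the deepest one. The part of depth in these counts was not tested. Mki67, a gene of cycling cells, was at 0 in the 4. Chemokine and Tnf UMIs were unevenly spread too, since the 4 highest barcodes of each gene held 84.5% of Ccl3, 81.0% of Tnf and 55.8% of Cxcl2 UMIs of the 34, so the CPM of these genes rests on few cells, whereas for Il1b they held 23.8%.

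**Figure D3:**
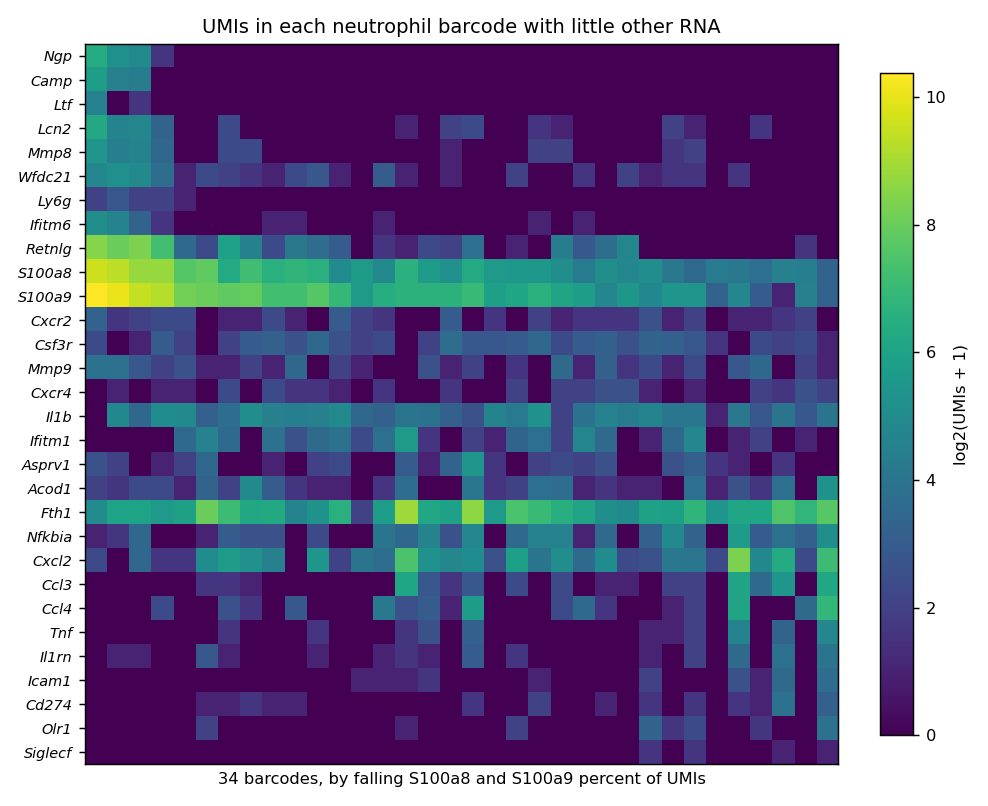
UMIs of 30 genes (rows) in each of the 34 low-marker barcodes (columns, by falling alarmin share), coloured by log2(UMIs + 1). Ngp, Camp and Ltf are filled within the same 4 columns, Il1b in 33, and Ccl3 and Tnf in 17 and 11.

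The granule genes were also found outside the low-marker barcodes. In the 75, 18 barcodes held at least 2 UMIs of Ngp, Camp and Ltf, of which 14 were high-marker barcodes. Ngp stood at 972 CPM (799 to 1170.0) in the 41 and 1268 CPM (1074 to 1488) in the 34, while Retnlg stood at 1978 and 11055 CPM. Of the 111 Ngp UMIs in the 41, 77 lay in 3 barcodes, so this level rests on few of them.

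Of the sets compared, the reporter was lowest in the neutrophils with little foreign RNA. All cells came from the GFP+ sort, so Gfp RNA was read in each gate. Of 2 features for this protein in the matrix, the one named Gfp was used. No values of the other are given, so all reporter levels here hold for the feature named Gfp alone. It held 21 UMIs in 15 of the 75 barcodes, 90.02 CPM (55.7 to 138), and 20 of them lay in the high-marker barcodes. Monocytes stood at 898 CPM (865 to 932), macrophages at 360.3 CPM (355 to 365), fibroblasts at 133 CPM (128 to 138) and the rest of the library at 347 CPM (344 to 349). The log2 ratio of the 75 over monocytes was -3.32 (-4.01 to -2.70), but -2.28 against the monocytes of like depth and -2.41 as a mean over barcodes. At 500 UMIs a Gfp UMI was seen in 8% of the 75, 29.1% of monocytes and 7.83% of fibroblasts (unthinned 20%, 88.4% and 39.0%). All 6 of the 75 with a Gfp UMI at that depth were high-marker barcodes, whose most frequent leading foreign class was fibroblast, and the part of foreign RNA in these UMIs was not tested. In the 34 none had a Gfp UMI at 500 UMIs, with an upper limit of 10.3% on the share of barcodes with one at that depth, and unthinned 2.94% had one.

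The 1 Gfp UMI of the 34 lay in their deepest barcode, which also carried endothelial RNA. That barcode had 9916 UMIs, of which 43 were alarmin, 174 Fabp4 (a lipid carrier of capillaries), 21 Flt1 (a receptor for vascular endothelial growth factor) and 10 Cdh5 (the cadherin of endothelial junctions). It held all 26 Tm4sf1 UMIs of the 34, so these say nothing of the others. In the remaining 33 barcodes Gfp was at 0 of 109124 UMIs, where 3 UMIs would be 27.5 CPM and the upper 95% limit is 33.8 CPM. Both lie below the 898 CPM of monocytes and the 133 CPM of fibroblasts. Of the 8 Schwann cell markers, 7 were at 0 in the 34, among them Sox10 and S100b, and Mbp, which blood cells also transcribe, held 9 UMIs. How these cells came through the sort was not tested.

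**Figure D4:**
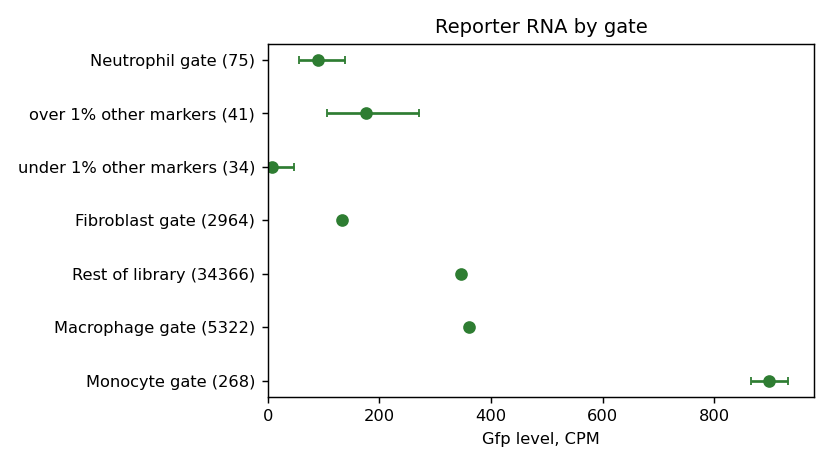
Gfp level in CPM (x, linear axis from 0) in the neutrophil gate, its 2 parts and 4 other sets of barcodes, with exact Poisson 95% intervals and the number of barcodes in brackets. The 34 low-marker barcodes lie at 8.40 CPM, the 41 others at 175 and monocytes at 898.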

How the data were processed

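Deposited values were counts of UMIs per gene and barcode in 1 GFP+ library. The authors made them with Cell Ranger, without normalization. The file header names Cell Ranger 8.0.1, the study's methods another version, and the submitters' processing notes Cell Ranger 7.1.0. The study names both GRCm38 and GRCm39, so no coordinates were taken from the counts, and promoters came from RefSeq GRCm38.p6.

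The filter asked for over 200 genes per barcode and a mitochondrial share below 10%. Neutrophils, monocytes, macrophages and fibroblasts were taken by limits on raw UMIs. Their members and all gene lists were chosen with earlier results of these data known. Markers of other cell types were 6 lists, and the 1% limit on them was set after the data were seen. Besides the listed genes, the text names the 15 features furthest above and the 15 furthest below monocytes, ranked by the interval bound nearer to 0, without mitochondrial, ribosomal, hemoglobin and gate genes.

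UMIs of a gate were summed to CPM with exact Poisson 95% intervals, shares carry Clopper-Pearson intervals and log2 ratios exact conditional ones, with numpy 2.4.6 and scipy 1.17.1. All cover counting error only. Features needed 50 CPM in either gate, and 4-fold set a call. A gene at 0 was set at 3 UMIs. Shares of barcodes were taken after thinning to 500 UMIs. Members were clustered with scanpy 1.11.5 (1000 variable genes, 10 components, 15 neighbours, resolution 0.5). The study's doublet and ambient RNA tools were not run. Scrublet, which was given a fixed share of 13.8% to remove, took 4745 barcodes, of which 132 had 5000 UMIs or more, so it bears little on deep ones. The comparison of summed gates and the intervals were tested on simulated counts, and the other steps were not. Some listed genes are not reported here.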

Additional observations from a re-analysis of the deposited data

How the results depend on the processing

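Counts rest on the limits of the gate. With at least 30 alarmin UMIs 49 barcodes remained (0.142% of those kept), with no C1q UMI 29 (0.0842%), without the C1q limit 117 (0.340%), and with other-class markers under 1% 34 (0.0987%), an alternative chosen after seeing the data. Features 4-fold above monocytes fell from 511 to 195 against monocytes of like depth. Those 4-fold below, 234 in the text, were 354, 389, 89, 597 and 628 under the limit of 30 alarmin UMIs, no C1q UMI, no C1q limit, markers under 1% and monocytes of like depth. Against the rest of the library, 181 were higher without the C1q limit and 491 with markers under 1%, and 403, 471, 51 and 795 were lower under the first 4 of these settings. Gfp stood at 52.2, 161 and 8.40 CPM with 30 alarmin UMIs, no C1q limit and markers under 1%, and at 169 CPM as a mean over barcodes. Shares of barcodes with a UMI rose with the depth read, from 54.7% at 500 UMIs to 66.7% at 1000 and 77.3% unthinned for Il1b, from 65.3% to 78.7% and 89.3% for Cxcl2, and unthinned to 48% for Mmp9 and 20% for Gfp. The log2 ratio over monocytes reversed for Il1b (0.42 with markers under 1%, 0.15 without barcodes of 5000 UMIs or more, 0.92 at like depth), for Cxcl2 (0.54, 0.39 and 0.66) and for Tnf (-0.40 with no C1q UMI). The cause was not tested. The other 191 of 198 ratios of single genes kept their direction, while 91 of 170 levels of single genes moved by more than counting error. These ratios cover a short set of genes. It includes S100a8, S100a9, Retnlg, Csf3r and Cxcr2, whose direction the gates largely set. Removing Scrublet doublets took out none of the 75, so that setting could hardly change a ratio. Cd14 and Klf4, outside this set, also changed direction between the 75 and the 34. No alternative was run for the clusters and splits within the neutrophils. No paired analysis was possible because 1 library was analysed, and for the same reason no replicate could be left out. Depth limits the rest: 3 UMIs are 12.9 CPM in the 75 barcodes and 25.2 CPM in the 34.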

Other observations

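The 9 barcodes with at least 3 UMIs of Rsad2, Ifit1, Ifit3, Isg15 and Cxcl10, genes induced by interferon, included 6 of the 34 with few markers of other cells. The 10 listed eosinophil and mast cell genes held 1 UMI in the 75, of the eotaxin receptor Ccr3. Outside that list, Siglecf, known from eosinophils, was found in 4 of the 75 and Hdc, known from mast cells, in 41.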
